A study of Mus musculus with 4 samples.

Results

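Macrophages rich in MHC class II RNA were described in single cells sorted from regenerating mouse muscle. They were chosen by measured values. A cell counted when 7 macrophage genes (C1qa, C1qb, C1qc, Tyrobp, Fcer1g, Ctss and Csf1r) together gave at least 20 of every 10000 UMIs, when it held 0 UMIs of Myog, and when Cd74, H2-Aa, H2-Ab1 and H2-Eb1 together gave at least 20 of every 10000 UMIs. A UMI, or unique molecular identifier, stands for 1 captured RNA molecule. This gave 129 class II-rich macrophages among 10450 cells with at least 5000 UMIs and 1000 detected genes, out of 16519 barcodes. A further 78 cells met the macrophage and Myog limits but not the class II limit, and these class II-low macrophages were the nearest cells for comparison. The values of these 11 summed genes and of Myog in the cells therefore describe the choice and were not tested against it.

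The cells came from tibialis anterior muscles of 12-week-old mice on day 6 after cardiotoxin, a snake venom toxin that kills muscle fibres, was injected. Control mice carried Pax7Cre, the Cre recombinase under the Pax7 promoter, and miR-501KO mice carried Pax7Cre with a floxed miR-501 precursor. There were 2 libraries per genotype, each from the pooled muscles of 3 mice, and replicate 1 and replicate 2 of both genotypes were made in 2 separate runs. Pax7 is a gene of muscle stem cells, so the deletion is driven in the myogenic lineage and not in macrophages, and the state of the allele was not measured in either. The sort kept α7 integrin-positive cells and excluded cells positive for CD45, CD31 or Sca1. Libraries served as the replicates between genotypes. P-values rest on the spread between these pools and, in tests of genes, also on a spread shared over genes. Myogenic cells with Pax7 or Myf5 RNA and a macrophage gene sum under 2 per 10000 UMIs, called progenitors here, numbered 7557 and gave the background level of each gene. The second limit leaves out cells that hold macrophage RNA, so the background of macrophage genes can be lowered by the choice.

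MHC class II molecules carry peptides from engulfed material to the cell surface, where CD4 T cells read them. The α and β chains of H2-Aa and H2-Ab1 assemble around the invariant chain, which Cd74 encodes. H2-DM later exchanges a remnant of the invariant chain for peptide. H2-Eb1 encodes a further β chain. Ciita is the coactivator that switches these genes on together, through factors bound at short conserved boxes in their promoters. In injured muscle, macrophages clear debris, present antigen and support the growth of new fibres, and part of them arise from Ccr2-positive blood monocytes.

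The promoter stretches below show letters of the X and Y boxes that class II genes are known to share. H2-Aa and H2-Eb1 are shown because they helped to choose the cells, H2-Ob as a further gene of the pathway, and H2-DMb1 because it had the smallest p-value of the genes that rose with the class II level. The sequences are from RefSeq, build GRCm38.p6, each read 5′ to 3′ on the strand of its gene. Capitals mark GCAAC, from the X box, and GATTGG, which holds the inverted CCAAT core of the Y box. H2-Aa lies at chr17:34287847-34287924 on the minus strand, H2-Eb1 at chr17:34305756-34305832, H2-Ob at chr17:34238798-34238872 and H2-DMb1 at chr17:34153089-34153154, all 3 on the plus strand.
H2-Aa: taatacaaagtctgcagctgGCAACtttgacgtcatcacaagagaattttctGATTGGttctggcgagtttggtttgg
H2-Eb1: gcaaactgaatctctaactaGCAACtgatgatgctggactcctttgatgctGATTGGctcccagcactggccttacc
H2-Ob: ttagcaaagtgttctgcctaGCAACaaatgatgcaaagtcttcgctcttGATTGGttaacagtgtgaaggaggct
H2-DMb1: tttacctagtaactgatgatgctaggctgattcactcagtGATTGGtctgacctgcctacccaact

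In H2-Aa, H2-Eb1 and H2-Ob the capitals stood 27, 26 and 24 bases apart, and the second motif began 49, 60 and 58 bases before the start of the gene. In H2-DMb1 only the second motif was found, 62 bases before the start. On either strand, GCAAC occurred in 35.2% of 32851 RefSeq promoters of 300 bases and GATTGG in 16.1%. Both in this order on 1 strand with at most 40 bases between them occurred in 0.630%. Of 21 genes of the class II lists (the 4 of the rule and 17 of the pathway), 15 had a promoter in the table. Among those 15, 5 held both motifs (H2-Aa, H2-Eb1, H2-Oa, H2-Ob and H2-Eb2) and 11 held the second. Of the 15 other genes called in the comparison with class II-low macrophages, 12 had a promoter and 1, Rogdi, held both motifs. The letters were chosen after the windows had been seen, and a match describes letters, not a bound site.

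The 4 libraries held 3439, 1829, 2833 and 2349 kept cells, listed here and below in the order Pax7Cre replicate 1, Pax7Cre replicate 2, miR-501KO replicate 1 and miR-501KO replicate 2. Median depth was 25254 to 34579 UMIs per cell. miR-501KO replicate 1 stood apart from the rest, with a sum of 10 sarcomere genes of at least 20 per 10000 UMIs in 1126 of its cells against 257 to 567 cells in the others. Shares, counts of calls and the main genes by genotype are also given without it, where the lone miR-501KO library is assumed to vary like the Pax7Cre pair. Across libraries 20 barcodes of kept cells were shared, of which 0 belonged to class II-rich macrophages. Pax7Cre replicates 1 and 2 and miR-501KO replicates 1 and 2 gave 27, 27, 45 and 30 class II-rich macrophages and 26, 9, 25 and 18 class II-low macrophages. Their depth was a median of 18093 UMIs and 19724.5 UMIs, respectively.

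The class II sum of the class II-rich macrophages was broad, with a lowest value of 21.6, a median of 310 and a highest value of 1036 UMIs per 10000. Library medians were 264, 340, 308 and 439. The lowest 3 cells stood at 21.6, 22.2 and 25.3, and the highest 3 class II-low macrophages at 15.4, 15.1 and 14.5. The limit cut a range rather than a gap between types, since 11 class II-rich cells lay under 40 and 8 class II-low cells at 10 or more. Most cells were far from it, with 97 of 129 class II-rich cells at 100 or more and 28 of 78 class II-low cells at 0. On the macrophage sum the lowest members stood at 24.7, 25.3 and 28.0, and the cells just outside at 15.6 and 10.9.

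**Figure D1:**
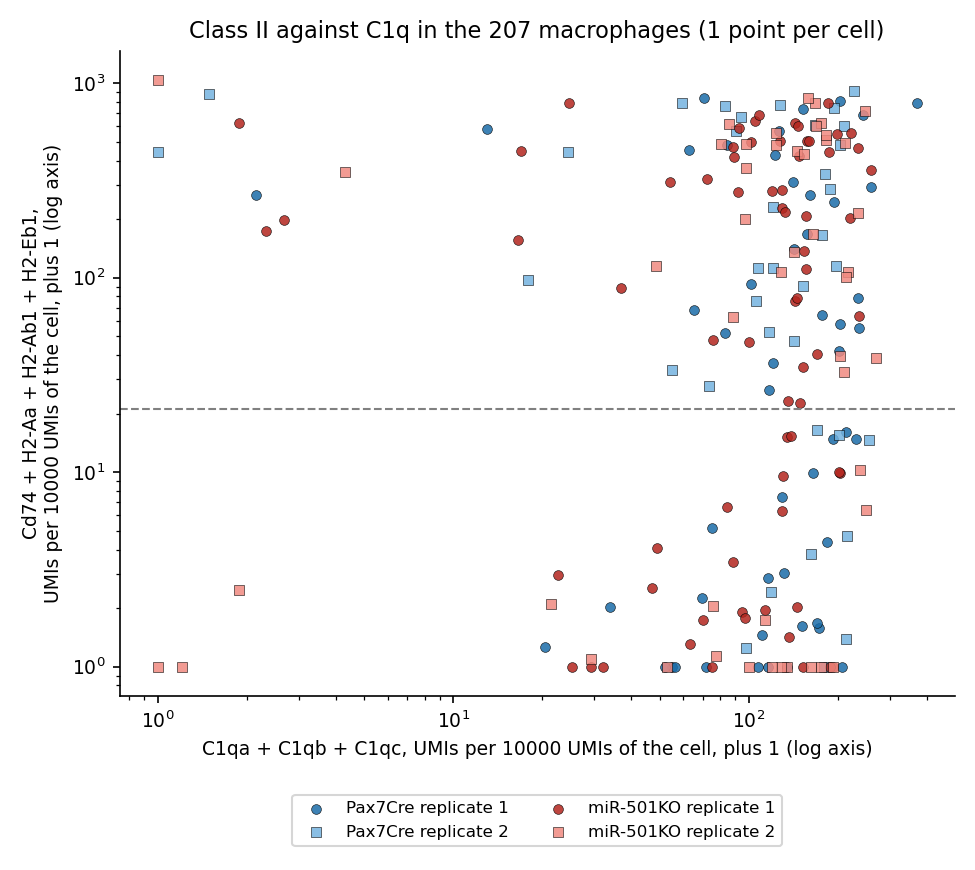
Each point is 1 of the 207 macrophages, with the sum of the 3 C1q genes on the x axis and the sum of the 4 class II genes on the y axis, both as UMIs per 10000 UMIs of the cell plus 1 on log axes. The dashed line is the limit of 20 on the class II sum, above which lie the 129 class II-rich cells of all 4 libraries, and 8 of these stand apart at the left with a C1q sum under 5.

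Cd74, the invariant chain, made up the largest part of that sum. In the summed UMIs of each library it stood at 122, 143, 138 and 176 per 10000 UMIs, against 1.21, 3.15, 1.39 and 0.634 in class II-low macrophages. H2-Aa stood at 62.2, 71.8, 69.1 and 84.3, H2-Ab1 at 55.2, 60.0, 59.0 and 67.7, and H2-Eb1 at 54.5, 58.4, 58.0 and 69.1. The mix of the 4 genes was much the same in each library, with Cd74 at 42.7% to 45.2% of the class II sum. In progenitors the class II sum was 0.0676 to 0.134 per 10000 UMIs.

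The chains varied together from cell to cell. Over the 129 cells, Spearman's rho was 0.96 between H2-Aa and H2-Ab1 and 0.95 between Cd74 and H2-Aa. The class II sum had a rho of -0.03 with the C1q sum. These correlations share cells, depth and a common denominator and are given as descriptions.

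The label was checked against markers outside the rule. Lyz2, the lysozyme of myeloid cells, stood at 171, 178, 153 and 185 per 10000 UMIs, against 0.0650 to 0.105 in progenitors. Adgre1, which encodes the macrophage surface protein F4/80, stood at 3.59, 5.16, 5.66 and 5.16, against 0.00134 to 0.00366. The sum over all 15 macrophage identity genes was 222 to 252 in class II-rich and 188 to 236 in class II-low macrophages, against 0.392 to 0.503 in progenitors. All 15 were detected, so the name macrophage matched the markers for the cells as a whole.

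Cells were also compared after thinning each to 5000 UMIs, so that depth did not set the shares. Lyz2 was found in 99.2% of class II-rich and 97.4% of class II-low macrophages, and in 5.0% of progenitors. Adgre1 was found in 80.6%, 76.9% and 0.1%. Ptprc, which encodes CD45, was found in 81.4%, 59.0% and 0.1%. Without thinning, Ccr2 was found in 65.1%, 25.6% and 0.2% of the same groups. Progenitors, which should lack these genes, give the background of each share, at a median depth of 30247 UMIs.

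Ptprc and Itga7 RNA went against the sort in these cells. Ptprc stood at 4.06, 3.89, 4.94 and 4.62 per 10000 UMIs in class II-rich macrophages and at 0.000505 to 0.00220 in progenitors. Itga7, the α7 integrin on which cells were kept, stood at 0.0760, 0.136, 0.224 and 0.151, below the 1.13 to 1.38 of progenitors in every library. After thinning, an Itga7 UMI was found in 1.6% of class II-rich macrophages and 45.1% of progenitors. How CD45 RNA-positive cells came through the gate was not tested.

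Markers of other cells gave small sums beside those of the macrophage genes, and a small set of cells that differed is described next. Several of these sums still lay above the progenitor level. Among B cell genes Cd79a, Ms4a1 and Pax5 were at 0, and the sum of the 6-gene list, 1.60 to 2.0 per 10000 UMIs, came from Ighm and Cd79b. In class II-low macrophages this sum was 0.471 to 1.55, and in progenitors 0.00926 to 0.0139. The sum of the 6 T and NK cell genes was 1.26, 0, 0.107 and 0, and that of the 5 neutrophil genes 0.304 to 0.513 with S100a9 and Retnlg at 0. In progenitors these 2 sums reached at most 0.00494 and 0.00659. Endothelial, Schwann, mural and fibroblast lists summed to at most 0.107, 0.33, 2.43 and 2.99, against up to 0.0729, 0.0852, 19.9 and 17.9 in progenitors. The 6 myogenic progenitor genes summed to 1.08 to 1.92, against 16 to 16.2 in progenitors, and the 10 sarcomere genes to 2.43 to 4.19. Pax7 and Myf5 are among those 6 genes and helped to choose the progenitors, so part of the first gap is set by that choice. Only 2 of the 129 cells, both in Pax7Cre replicate 2, had a sarcomere sum of at least 20.

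A small set of cells lacked C1q, the complement component that most of the others expressed strongly. It held 8 of the 129 cells (1, 2, 3 and 2 by library) with a C1q sum under 5 per 10000 UMIs, the highest at 3.32 and the next cell at 12.0. This limit was chosen after seeing the data. C1qa and Adgre1 were at 0 UMIs in these cells and Csf1r at 1 UMI. Lyz2 was 10.1 per 10000 UMIs in their sum against 176 in the other 121 cells, and Apoe 2.12 against 316. Tyrobp, a signalling adaptor of myeloid cells, was close in both at 19.7 and 21.3.

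These 8 cells held most of the RNA of Cd209a, a C-type lectin of dendritic cells, with 162 of its 205 UMIs in 5 cells. Flt3, the growth factor receptor of the dendritic lineage, gave 17 of its 38 UMIs there, in 5 cells. A single one of them held 28 of the 95 UMIs of Ccr7, the receptor that guides migration to lymph nodes. Their class II sum had a median of 395, against 308 in the other 121 cells. No cell type name was given to them, since they are few and were picked on measured values.

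The comparison with class II-low macrophages asked which other genes follow the class II level. UMIs were summed per library over each group and tested with edgeR's quasi-likelihood test with the library as a block, over 6184 genes without those of the rule. At an adjusted p (Benjamini-Hochberg) under 0.05, 15 genes were higher in class II-rich macrophages (0.243%) and 3 were lower (0.0485%). The median log2 fold change over all genes tested was -0.02, and 686 genes had an unadjusted p under 0.05. In such sums, fewer cells with a gene and less RNA per cell cannot be told apart. Genes rare in class II-low macrophages passed the count filter through the class II-rich sums, so their rise is partly set by the filter. Among the called genes these were Ciita, Plbd1, Clec4b1, Batf3, Dnase1l3, Klrb1b, Slc7a11 and Rogdi. Naaa, with 12, 8, 7 and 18 UMIs in the class II-low sums, lay near the filter limit there. In the other direction Ednrb, with 12, 11, 6 and 3 UMIs in the class II-rich sums, passed through the class II-low sums. The share of all tested genes with groups that did not overlap was not counted.

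The genes of peptide loading rose together with the chains they serve. H2-DMb1 (ENSMUSG00000079547), the β chain of the peptide exchanger H2-DM, stood at 4.47, 4.24, 4.81 and 5.05 per 10000 UMIs in class II-rich and at 0.413, 0.310, 0.457 and 0.455 in class II-low macrophages. The groups did not overlap, and the log2 fold change was 3.61 (SE 0.19, adjusted p = 3.72e-05). H2-DMa (ENSMUSG00000037649), the α chain, stood at 4.51, 5.61, 4.01 and 5.46 against 0.767, 0.825, 1.05 and 0.423. Its log2 fold change was 2.83 (SE 0.29, adjusted p = 0.00464), again with every class II-rich library above every class II-low one. After thinning, H2-DMb1 was found in 75.2% of class II-rich cells, 25.6% of class II-low cells and 0.1% of progenitors.

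Ciita (ENSMUSG00000022504), the class II coactivator, rose as well. It stood at 0.562, 0.726, 1.01 and 1.04 per 10000 UMIs against 0, 0.155, 0.0436 and 0.0325, with a log2 fold change of 4.52 (SE 0.51, adjusted p = 0.00695). A Ciita UMI was found in 77 of the 129 class II-rich cells before thinning. No such difference was found for the factors that bind the X box. Rfxap stood at 0.289, 0.212, 0.235 and 0.358 against 0.339, 0.413, 0.109 and 0.244 (log2 fold change 0.25, adjusted p = 0.832), and Rfx5, with 11 and 8 UMIs, and Rfxank, with 24 and 21, were below the count filter.

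Of the 17 class II pathway genes 10 were tested, of which 3 were higher, 0 were lower, and 7 did not pass the test. Their median log2 fold change was 0.92. Marchf1, a ubiquitin ligase that removes class II from the surface, had a log2 fold change of 1.16 (adjusted p = 0.119), with groups that did not overlap. Cd86, a co-stimulatory ligand for T cells, had 1.25 (adjusted p = 0.251). Ifi30, a thiol reductase that unfolds antigen, had 0.67 (adjusted p = 0.486), and Ctsl, a cathepsin, -0.68 (adjusted p = 0.255).

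The H2-DO chains and H2-Eb2 were rare. H2-Oa, a chain of the H2-DM inhibitor, gave 21 UMIs in class II-rich cells and 0 of 1945907 UMIs in class II-low cells. Against a floor of 3 UMIs over the 4 class II-low sums it was at least 4.89-fold higher. Of the 21 UMIs, 8 came from 4 of the 8 cells with a C1q sum under 5, and miR-501KO replicate 2 held 1. The bound without those 8 cells was not computed for H2-Oa. H2-Eb2 gave 20 UMIs, 15 of them in Pax7Cre replicate 2 and 0 in Pax7Cre replicate 1, against 0. H2-Ob gave 37 UMIs against 1.

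**Figure D2:**
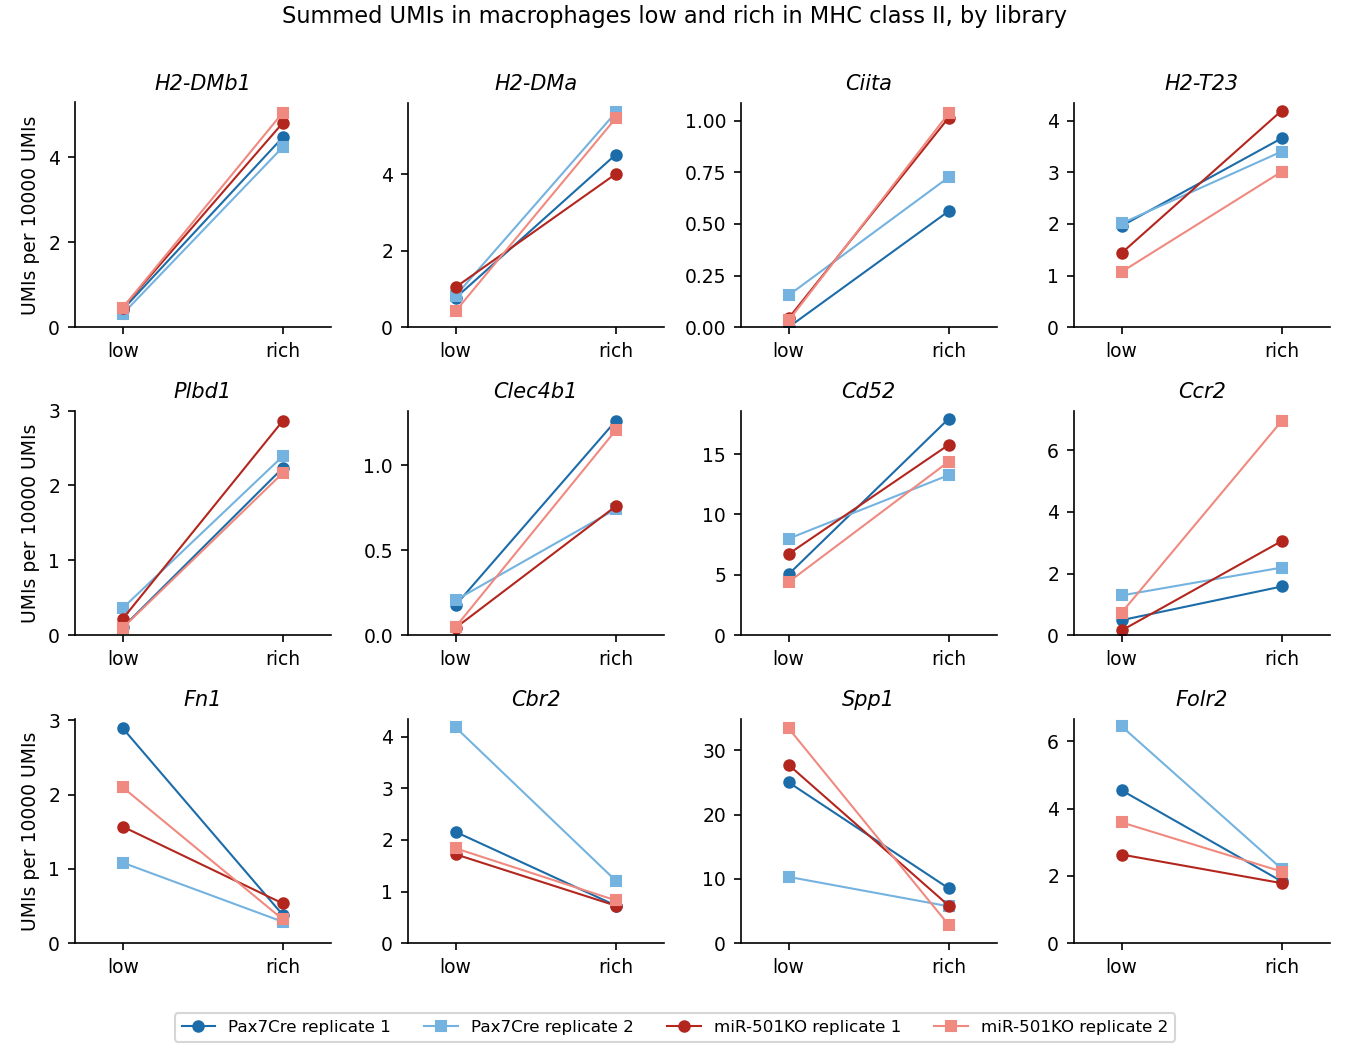
Each panel gives 1 gene as UMIs per 10000 in the summed UMIs of class II-low and class II-rich macrophages, on a linear axis from 0, and each line joins both sums of 1 library. H2-DMb1, H2-DMa and Ciita rise steeply in all 4 libraries, whereas Fn1 and Cbr2 fall in all 4, and Ccr2, Spp1 and Folr2 move in 1 direction in every library without passing the test.

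Class I genes, which present peptides from inside the cell, leaned the same way by smaller amounts. All 10 tested of 11 had a positive log2 fold change, against 2978 of all 6184 genes tested. Their median was 0.57, and 1 passed the test. That gene, H2-T23, which encodes the non-classical molecule Qa-1, stood at 3.66, 3.40, 4.20 and 3.01 per 10000 UMIs against 1.96, 2.01, 1.44 and 1.07 (log2 fold change 1.3, SE 0.20, adjusted p = 0.0328). H2-K1, a classical heavy chain, had 0.57 (adjusted p = 0.23). B2m, the shared light chain, had 0.38 (adjusted p = 0.406). The X and Y boxes described above are known from class I promoters as well. The first and second motif each occurred in the H2-T23 promoter, but not as the ordered pair counted above.

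Among the other genes that rose, several encode surface receptors or lysosomal enzymes. Plbd1, a phospholipase B-like protein of granules and lysosomes, stood at 2.23, 2.39, 2.86 and 2.17 per 10000 UMIs against 0.103, 0.361, 0.218 and 0.0975 (log2 fold change 3.98, SE 0.31, adjusted p = 0.000669). Clec4b1, a C-type lectin, stood at 1.26, 0.741, 0.758 and 1.21 against 0.177, 0.206, 0.0436 and 0.0488 (3.41, SE 0.38, adjusted p = 0.00695). For both genes the groups did not overlap, which is partly set by the count filter and by their choice as called genes. Naaa, a lysosomal amidase, had a log2 fold change of 2.14 (SE 0.28, adjusted p = 0.0161).

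Cd52, a small surface glycoprotein of leukocytes, stood at 17.9, 13.3, 15.8 and 14.4 per 10000 UMIs against 5.05, 8.0, 6.73 and 4.40 (log2 fold change 1.5, SE 0.21, adjusted p = 0.0209). Tmem176a, a membrane protein, had 1.54 (SE 0.22, adjusted p = 0.0232). Fcgr4, an activating receptor for IgG, had 1.44 (SE 0.23, adjusted p = 0.0341). Each of these was higher in class II-rich cells in 4 of 4 libraries. The remaining called genes were Batf3, Dnase1l3, Klrb1b, Slc7a11 and Rogdi, all rarer and with groups that did not overlap. They gave 120, 72, 70, 92 and 100 UMIs in class II-rich macrophages and 18, 1, 3, 11 and 19 in class II-low macrophages. With so few UMIs in class II-low macrophages, all of them passed the count filter through the class II-rich sums. The lack of overlap is thus partly set by the filter and by their choice as called genes.

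The genes that fell were Fn1, Cbr2 and Ednrb. Fn1, fibronectin, stood at 0.380, 0.288, 0.534 and 0.320 per 10000 UMIs in class II-rich against 2.89, 1.08, 1.57 and 2.10 in class II-low macrophages, with a log2 fold change of -2.15 (SE 0.26, adjusted p = 0.00941). Its level in progenitors was 3.41 to 4.25. Cbr2, a carbonyl reductase, stood at 0.729, 1.21, 0.726 and 0.829 against 2.15, 4.18, 1.72 and 1.84 (-1.32, SE 0.20, adjusted p = 0.0292), and only 0.00143 to 0.00330 in progenitors. Ednrb, an endothelin receptor, gave 32 UMIs against 123 (-2.32, SE 0.29, adjusted p = 0.0097). It passed the count filter through the class II-low sums, so its fall is partly set by the filter.

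Leaving out Pax7Cre replicate 1 left 2 genes called, both among the 18, which were H2-DMb1 and Plbd1. Without Pax7Cre replicate 2, miR-501KO replicate 1 or miR-501KO replicate 2, 55, 18 and 12 genes were called, of which 18, 9 and 9 were shared with the 18. Without the cells of both groups that had a C1q sum under 5, 13 genes were called, 12 of them shared, and Batf3, H2-T23, Rogdi and Slc7a11 were among those lost.

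Genes of resident macrophages gave lower values on the whole. Of 11 listed genes 9 were tested, of which 1, Cbr2, fell and 0 rose, and the median log2 fold change was -0.54. Folr2, a folate receptor of long-lived tissue macrophages, stood at 1.84, 2.21, 1.78 and 2.13 per 10000 UMIs against 4.54, 6.45, 2.64 and 3.59 (-0.92, adjusted p = 0.145). F13a1, a transglutaminase, had -1.38 (adjusted p = 0.0933), and the groups of both genes did not overlap. Mrc1, the mannose receptor CD206, had -0.41 (adjusted p = 0.438). Timd4, a phosphatidylserine receptor of resident macrophages, was at 0 in both groups, and Lyve1 gave 10 and 32 UMIs.

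The 11 monocyte and inflammatory genes did not move as 1 group. Of these, 6 were tested, of which Fn1 fell and 0 rose, with a median of 0.64. Ccr2, the chemokine receptor that brings monocytes out of the marrow and into tissue, stood at 1.58, 2.19, 3.06 and 6.95 per 10000 UMIs against 0.487, 1.29, 0.152 and 0.731. Every class II-rich library lay above every class II-low one, and the test gave a log2 fold change of 2.55 (SE 0.47, adjusted p = 0.0676). Thinned to 5000 UMIs, 52.7% of class II-rich and 16.7% of class II-low macrophages held a Ccr2 UMI. Ly6c2, a surface marker of inflammatory monocytes, gave only 21 and 24 UMIs. Il1b, the cytokine interleukin-1β, stood at 13.1, 7.90, 9.92 and 6.65 against 6.23, 1.86, 17.8 and 1.69 (1.18, adjusted p = 0.364).

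Ccr2 and Folr2 were not exclusive within the class II-rich cells. After thinning, 25 cells held both, 43 held Ccr2 alone, 31 Folr2 alone and 30 neither. Ccr2 and Gpnmb met in 8 cells, with 60 cells holding Ccr2 alone, 22 Gpnmb alone and 39 neither.

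Genes of lipid-handling and repair macrophages had 0 called of 11 tested and a median of -0.51. Spp1, osteopontin, stood at 8.52, 5.74, 5.83 and 2.83 per 10000 UMIs against 25, 10.3, 27.7 and 33.4 (-1.92, adjusted p = 0.0676). The groups did not overlap, although progenitors themselves held 11.1 to 14.2. Trem2, a lipid-sensing receptor, had -0.51 (adjusted p = 0.277), and Gpnmb, a glycoprotein of lipid-laden macrophages, -1.27 (adjusted p = 0.483). Apoe, the lipid carrier, was high in both groups, at 266, 362, 302 and 278 against 241, 343, 383 and 191. Igf1, a growth factor for regenerating fibres, stood at 2.46, 3.09, 1.70 and 2.47 against 3.48, 3.15, 3.35 and 2.76 (-0.30, adjusted p = 0.622).

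Further lists gave no called gene. They were macrophage identity (15 tested, median log2 fold change 0.34), the interferon response (15, 0.59), chemokines (13, 0.63), complement and scavenging (10, -0.06), lysosome (12, 0.16), iron and heme (7, 0.11), growth factors and alternative activation (4, -0.10) and the cell cycle (5, -1.10). Of the interferon genes 14 of 15 were positive, against 2978 of all 6184 genes tested. The sums of the list overlapped, at 9.95 to 21.9 per 10000 UMIs in class II-rich against 7.15 to 24.3 in class II-low macrophages. Ccl8, a monocyte chemokine, stood at 12.3, 9.34, 21.6 and 6.52 per 10000 UMIs against 15.1, 20.9, 21.1 and 2.47. Ctsd, a lysosomal protease, had -1.07 (adjusted p = 0.0676) with groups that did not overlap.

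Of the 10 dendritic cell genes, 5 were tested and 1, Batf3, a transcription factor, rose. The median of the 5 was 1.36, and the list summed to 2.88 to 5.15 per 10000 UMIs in class II-rich against 1.09 to 2.27 in class II-low macrophages. Cd209a and Flt3 were at 0 UMIs in class II-low macrophages, so that the class II-rich level was at least 47.7-fold and 8.85-fold higher over the floor of 3 UMIs. Only 10 and 13 of the 129 cells held a UMI of them, and in the 121 cells with a C1q sum of at least 5 the bounds were 10.4-fold and 5.10-fold. Itgax, which encodes CD11c, stood at 1.41, 0.227, 0.139 and 0.867 against 0.148, 0.103, 0.327 and 0.0975 (1.96, adjusted p = 0.33). Batf3 was among the genes no longer called without the cells that had a C1q sum under 5.

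**Figure D3:**
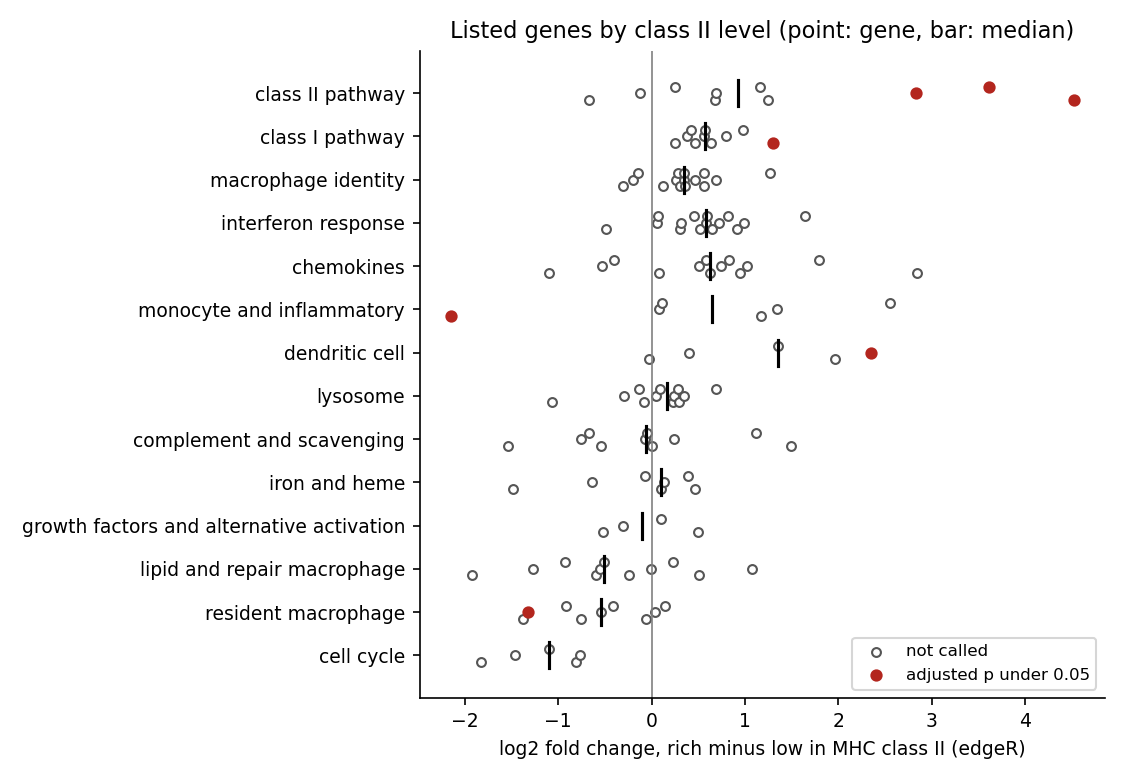
Each point is a tested gene of a list, placed at its edgeR log2 fold change of class II-rich minus class II-low macrophages, and the black bar is the median of the list. Red points mark an adjusted p under 0.05, which are 3 class II pathway genes, H2-T23, Batf3, Fn1 and Cbr2, and the list medians run from -1.10 for the cell cycle to 1.36 for the dendritic cell genes.

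The next comparison asked whether loss of miR-501 in the myogenic lineage went with another number of class II-rich macrophages. They made up 0.785% (95% Wilson interval 0.540 to 1.14), 1.48% (1.02 to 2.14), 1.59% (1.19 to 2.12) and 1.28% (0.896 to 1.82) of all kept cells. The means were 1.13% ± 0.346 (SEM, n = 2) in Pax7Cre and 1.43% ± 0.156 (SEM, n = 2) in miR-501KO. The difference of 0.302 percentage points lay within the spread between libraries (exact two-sided permutation test, p = 0.667), and it had opposite signs in the runs, 0.803 in run 1 and -0.199 in run 2. With 2 libraries against 2 the smallest p this test can give is 0.33. The intervals cover counting error only.

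The share of macrophages that were class II-rich did not separate the genotypes either. It was 50.9% (37.9 to 63.9), 75.0% (58.9 to 86.2), 64.3% (52.6 to 74.5) and 62.5% (48.4 to 74.8). The means were 63.0% ± 12.0 (SEM, n = 2) and 63.4% ± 0.893 (SEM, n = 2), with a difference of 0.421 points (exact permutation test, p = 1.0). Pax7Cre replicates 1 and 2 held the lowest and the highest value. Without miR-501KO replicate 1 the differences were 0.146 points of all cells and -0.472 points of macrophages.

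The Myog limit of the rule removed many cells with macrophage RNA. Of 334 kept cells with a macrophage sum of at least 20, 127 held Myog, 80 of them as a single UMI, and 69 of the 127 had a class II sum of at least 20. Myog was present in 54.2% of the other cells. When the Myog limit was replaced by a sarcomere sum under 20, among cells under that sum, class II-rich macrophages made up 1.88%, 2.04%, 3.75% and 2.13% of cells, and the difference between genotypes was 0.984 points (exact permutation test, p = 0.33). This alternative was chosen after seeing the data.

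The genotypes were then compared in gene expression within the class II-rich macrophages. In edgeR's quasi-likelihood test on the 4 library sums, 0 of 6289 genes were called (0.0%), with 272 at an unadjusted p under 0.05, and DESeq2 called 2. With the run as a block, 20 genes were called (0.318%), of which 3 were higher (0.0477%) and 17 lower (0.27%) in miR-501KO. The fit without the block was the main test and the block an alternative. The block leaves fewer residual degrees of freedom than the 2 of the main fit, and it was not part of the genotype check on simulated data. Its p-values therefore rest more on the spread shared over genes and less on that between pools. Deviations from genotype means correlated at -0.01 between the libraries of a run. The results below give both fits, since both genotypes were sequenced in each run. Where values are said not to overlap between genotypes, this describes the libraries and is not a test. With 2 libraries per genotype such an order can readily arise by chance. The share of all tested genes with genotypes that did not overlap was not counted. Leaving out Pax7Cre replicate 1, Pax7Cre replicate 2, miR-501KO replicate 1 or miR-501KO replicate 2 from the fit without the block gave 17, 2, 47 and 40 calls, where the lone library of a genotype was assumed to vary like the other pair.

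No class II pathway gene outside the rule passed the test between genotypes. Ciita stood at 0.562, 0.726, 1.01 and 1.04 per 10000 UMIs (0.62, adjusted p = 0.998; 0.68 without miR-501KO replicate 1), so both miR-501KO libraries lay above both Pax7Cre libraries. H2-DMb1 had 0.13 (SE 0.21, adjusted p = 0.998). Of the 10 tested class II pathway genes 0 were called by edgeR in either fit, and 2 had an unadjusted p under 0.05. Clcn5, the host gene of miR-501, gave 0.243, 0.545, 0.299 and 0.320, and since its 3′ tags lie outside the deleted precursor it does not check the deletion.

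Cell cycle genes gave lower values in miR-501KO, and part of them passed the test only with the block. The 5 tested of 6 gave a log2 fold change of -3.28 in the median and an unadjusted p under 0.05 each, with 0 called without the block and 3 called with it (Ube2c, Birc5 and Top2a). Top2a, the topoisomerase that untangles replicated DNA, stood at 0.471, 1.69, 0.171 and 0 per 10000 UMIs, a log2 fold change of -3.40 (SE 0.70, adjusted p = 0.32) without the block and -3.14 (SE 0.54, adjusted p = 0.000988) with it. Stmn1, which destabilizes microtubules in dividing cells, stood at 1.44, 3.10, 0.449 and 0.754 (-2.0, adjusted p = 0.143; -1.91, adjusted p = 0.000347 with the block). Hmgb2, a chromatin protein of cycling cells, stood at 3.27, 4.06, 1.65 and 1.96 (-1.07, adjusted p = 0.371; -1.06, adjusted p = 0.0553 with the block). Without miR-501KO replicate 1, Stmn1 had -1.59 and Hmgb2 -0.90 with no block.

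Few cells carried this difference. The 6 cell cycle genes summed to 2.48, 4.40, 0.994 and 0.301 per 10000 UMIs, and cells with a sum of at least 5 numbered 2 of 27, 3 of 27, 5 of 45 and 0 of 30 (0%, with a Wilson upper bound of 11.4%). The summed level was thus lower in both miR-501KO libraries, whereas the share of cells over 5 was as high in miR-501KO replicate 1 (11.1%) as in Pax7Cre replicate 2 (11.1%). Of 159 Top2a UMIs, 48 came from a single cell of Pax7Cre replicate 2, and of 382 Stmn1 UMIs, 105. In class II-low macrophages the sums were 6.51, 0.980, 0.915 and 13.6, with no order by genotype.

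Among genes of lipid-handling macrophages, Gpnmb and Fabp5 were lower in miR-501KO in the fit with the block. Gpnmb stood at 6.03, 2.36, 1.67 and 0.716 per 10000 UMIs (-1.84, SE 0.43, adjusted p = 0.436; -1.85, SE 0.27, adjusted p = 0.000347 with the block). Fabp5, a fatty acid binding protein, stood at 18.4, 6.11, 7.29 and 2.60 (-1.36, adjusted p = 0.888; -1.34, adjusted p = 0.00544 with the block). The values of Gpnmb did not overlap between genotypes and those of Fabp5 did. A single cell gave 119 of the 156 Gpnmb UMIs of Pax7Cre replicate 2. Without the cell that held most Gpnmb UMIs in each library, an alternative chosen after seeing the data, the genotypes overlapped. The levels were then 4.82, 0.654, 0.872 and 0.576. In Pax7Cre replicate 1, 1 cell gave 528 of 1210 Fabp5 UMIs. Without miR-501KO replicate 1 the log2 fold changes, with no block, were -2.56 for Gpnmb and -2.24 for Fabp5. The list as a whole had a median of -0.42 without the block, with 2 of 11 genes called with it.

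Ccr2 was higher in miR-501KO in the fit with the block. Its values of 1.58, 2.19, 3.06 and 6.95 per 10000 UMIs did not overlap between genotypes, which so few libraries can give by chance. The log2 fold change was 1.36 (SE 0.35, adjusted p = 0.52) without the block and 1.27 (SE 0.27, adjusted p = 0.0155) with it. Ccr2 UMIs were found in 15 of 27, 19 of 27, 28 of 45 and 22 of 30 cells, and 1 cell gave at most 74 of the 369 UMIs of miR-501KO replicate 2. Without the cell that held most Ccr2 UMIs in each library, an alternative chosen after seeing the data, the levels were 1.37, 1.85, 2.55 and 5.83. Without miR-501KO replicate 1 the log2 fold change, with no block, was 1.88. The other genes called higher with the block were Peg3, an imprinted gene, and Cd4, a T cell co-receptor also found on myeloid cells, which gave 185 and 61 UMIs in all. A single cell gave 47 of the 69 Peg3 UMIs of miR-501KO replicate 2, and another 34 of the 68 of miR-501KO replicate 1. Among genes with a mean of at least 50 CPM, Ifi203, an interferon-inducible gene, and Resf1 had the smallest p-values in that direction besides Ccr2 without the block, with log2 fold changes of 0.94 (adjusted p = 0.455) and 0.92 (adjusted p = 0.59).

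For each chemokine called with the block, 1 cell held most of the UMIs. Cxcl9, an interferon-induced chemokine for T cells, stood at 2.63, 0.0151, 0.417 and 0 per 10000 UMIs, and 120 of its 213 UMIs came from 1 cell of Pax7Cre replicate 1. It was called lower with the block (-2.76, adjusted p = 0.000347) and not without it (-2.51, adjusted p = 0.998). Ccl5, a chemokine of lymphocytes and activated myeloid cells, was called lower with the block (-1.67, adjusted p = 0.0155), and 248 of its 472 UMIs came from 1 cell of Pax7Cre replicate 1. Levels with the top cell of each library left out, an alternative chosen after seeing the data, were 0.834, 0, 0.123 and 0 for Cxcl9. For Ccl5 they were 0.897, 0.604, 0.595 and 0.265. No test was run without these cells. The interferon list had 0 calls by edgeR in either fit, with 2 of 15 genes at an unadjusted p under 0.05.

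**Figure D4:**
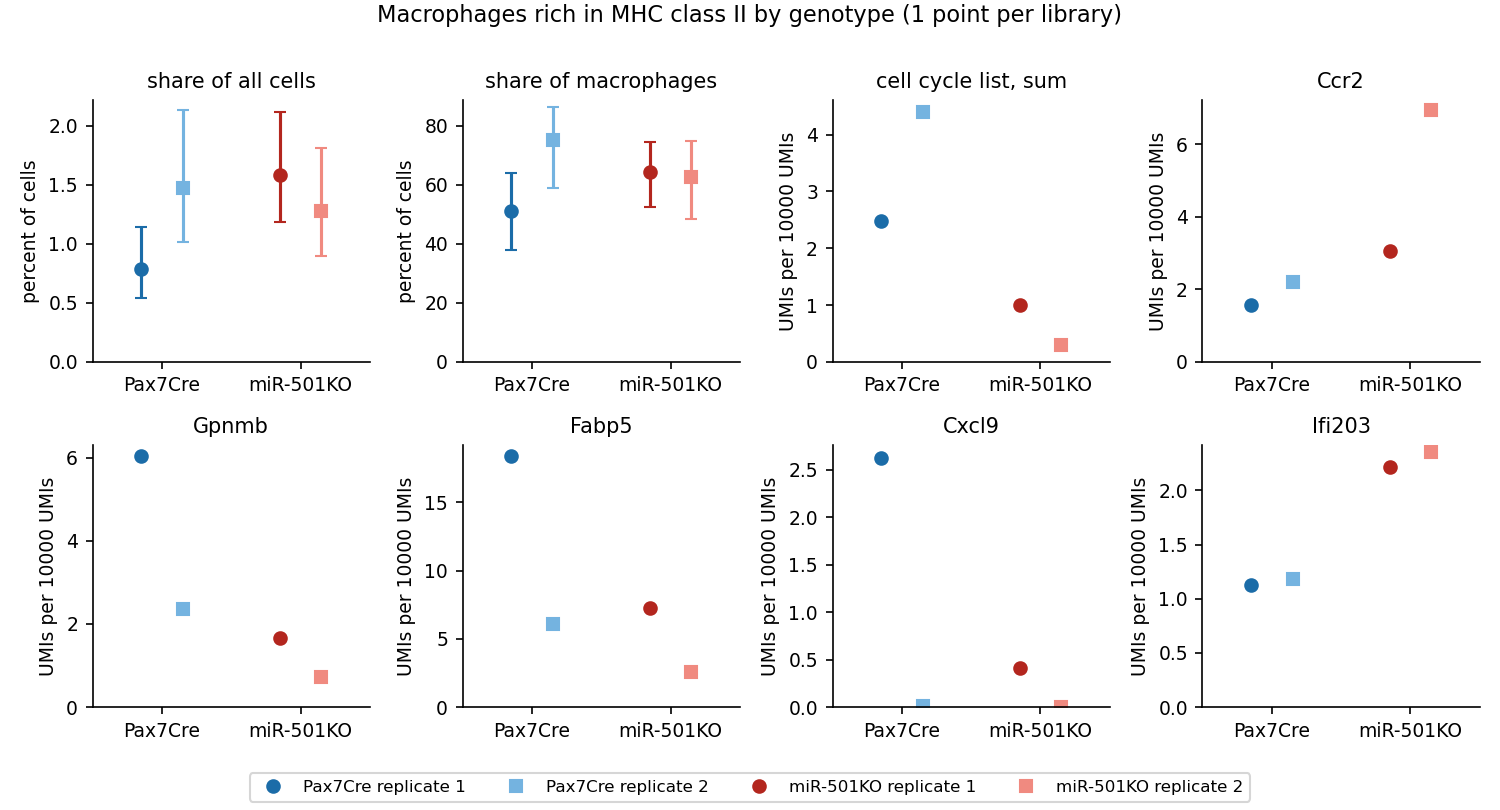
Each point is 1 library, with bars on the shares for the 95% Wilson interval, and the lower and right panels give UMIs per 10000 in the summed class II-rich macrophages on linear axes from 0. The shares of both genotypes overlap, the cell cycle sum and Gpnmb are lower and Ccr2 and Ifi203 higher in both miR-501KO libraries, and Cxcl9 is high in Pax7Cre replicate 1 alone.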

How the data were processed

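The authors deposited raw UMI counts per gene and barcode, with no normalization, from Chromium 3′ libraries. Per the file headers they were made with Cell Ranger 6.0.2, whereas the study names another version. GRCm39 and Seurat are named in the submitters' processing notes. All 4 libraries listed 25827 genes.

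Members and gene lists were chosen with earlier results of these data known. Cells were scaled to 10000 UMIs. Counts were summed per library, filtered with filterByExpr, TMM-normalized and tested with edgeR 4.0.16 (quasi-likelihood, Benjamini-Hochberg, 0.05) in R 4.3.3. The main fits were also run on counts simulated at a fixed dispersion. Those counts held no run effect and no single cells that gave most of a gene's UMIs, so they do not check the fits for either. Scanpy 1.11.5 and scipy 1.17.1 were used for cells and exact tests. Scrublet marked 18 of 10450 cells (0.172%), too few to have worked, so the 5% with the highest scores (9 of the 129 class II-rich cells) were left out as an alternative.

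Genes named were those of the lists (2 to 4 per list), 29 preset genes, called genes with a mean of at least 50 CPM (up to 10 per direction), and otherwise the 3 per direction with the smallest p. Rarer called genes, those called with the run block and all genes outside this rule were named after their values were seen.

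Runs were separate experiments holding both genotypes, so numbers pair libraries, although deviations from genotype means correlated at -0.01 between them. The authors' cell clusters were not used here. RefSeq promoters of GRCm38.p6 were used for sequence only.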

Additional observations from a re-analysis of the deposited data

How the results depend on the processing

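Of 17 alternatives, H2-DMb1 and Plbd1 were called under each, and the 18 genes called by class II level kept their sign wherever they were tested. That count was 28 at a class II limit of 40, 34 with a sarcomere limit in place of the Myog limit, 347 without the filter on low counts, 31 by DESeq2, 22 without the library block and 2 to 55 with 1 library left out. The count by genotype, 0, was 7 at a class II limit of 40, 1 without the highest Scrublet scores, 64 without the filter, 2 by DESeq2, 20 with the run as a replicate block and 2 to 47 with 1 library left out. Paired by run, the differences in shares stayed at 0.302 and 0.421 points, since each run holds 1 library per genotype. The share of all cells differed by 0.834 points with cells of a sarcomere sum under 20 and by 0.984 with that limit in place of the Myog limit, and by -0.0434 to 0.648 with 1 library left out. The share of macrophages differed by -11.6 to 12.4 with 1 library left out. What caused these changes was not tested, apart from the larger number of genes tested without the filter (14794 and 13963). Numbers of cells, 9 to 45 per sum, limit rare genes, and 2 libraries per genotype limit every test of genotype.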
